A study of Mus musculus with 9 samples.

Results

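The genes for odorant-binding proteins, lipocalins, BPI-fold proteins and major urinary proteins were taken as 1 set by their symbols: 47 of the 23607 genes in the count tables. They comprise 14 genes whose symbols begin with Bpif, 3 that begin with Obp and a digit, 10 with Lcn and a digit and 20 with Mup and a digit, and the rule for choosing them uses symbols alone. The libraries came from olfactory epithelium of 9 C57BL/6 mice, 3 of which spent 1 hr with distilled water (control), 3 with 1% heptanal and 3 with 100% heptanal, an aldehyde odorant. In every mouse RNA was pulled down with an antibody against phosphorylated ribosomal protein S6 (pS6), a mark of recent activity in neurons, and sequenced, so all values describe the precipitate. Each treatment had 1 mouse at postnatal day 18, 1 at day 21 and 1 at day 22. Per the study's methods, the treated and control mice of a replication were littermates of the same sex. Counts of Xist were 0 to 2 at day 18, 14 to 19 at day 21 and 0 at day 22. Counts of the Y-linked gene Ddx3y were 34 to 85, 0 and 2 to 6. By these genes the sex pattern was alike at days 18 and 22 and different at day 21. The library names of the 3 day 22 mice begin with YJC and those of the day 18 and day 21 mice with YJE, and what these series stand for is not given in the labels. Day and litter cannot be told apart, nor can day 21 and sex, nor day 22 and the naming series. Libraries held 5438494 to 9707592 gene counts, so counting error is small for the leading members, and each value comes from 1 mouse, so the tests measure the spread between mice.

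Lipocalins are small secreted proteins whose barrel-shaped fold encloses a pocket for hydrophobic molecules, and odorant-binding proteins and major urinary proteins are lipocalins. Odorant-binding proteins are made by nasal glands and released into the mucus that covers the olfactory cilia, where they bind odorants. Major urinary proteins are best known from liver and urine, where they carry pheromones, and some are also made in nasal glands. BPI-fold proteins share the fold of bactericidal/permeability-increasing protein and are secreted by nasal, oral and airway epithelium. In bulk pS6 precipitates, fewer cells of a type, less RNA per cell and less of that RNA pulled down cannot be told apart. No input RNA is among the samples, and the share of a gene also falls where the shares of others rise.

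Several of these genes are near copies of a neighbour, and the sequences that set a pair apart decide how its reads were counted. Coordinates are those of GRCm38.p6, the build of the deposited counts (mm10), and all sequences are the coding strand of RefSeq exons. Bpifb9a and Bpifb9b, neighbours on chromosome 2, differed at 13 of 2004 bases over 14 exons of equal length (99.4% identity). The reads were 50 bases long, and no 50-base window of the pair held more than 3 differences. The 9 windows that held 3 all lie within the following 90 bases of exon 2, at chr2:154260060-154260149 (Bpifb9a) and chr2:154309436-154309525 (Bpifb9b), both on the plus strand, with the differing bases in capitals.
Bpifb9a: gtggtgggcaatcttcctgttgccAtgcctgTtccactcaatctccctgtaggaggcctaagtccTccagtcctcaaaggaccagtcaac
Bpifb9b: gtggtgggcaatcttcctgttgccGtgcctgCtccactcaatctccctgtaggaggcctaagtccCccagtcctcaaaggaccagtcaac
Counted from 1 at the 5′ end of the stretch, with the Bpifb9a base first, the differences are A25G, T32C and T66C. The stretch ends 1824 bases before the end of the Bpifb9a transcript.

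Obp2a and Obp2b, also on chromosome 2, share 50-base windows, with up to 2 mismatches, only in exon 1. The coding part of exon 1, which codes for the start of the secreted protein, runs over chr2:25700091-25700177 in Obp2a and chr2:25737057-25737143 in Obp2b (plus strand) and differs only by T83A (Obp2a base first, counted from the start codon).
Obp2a, exon 1: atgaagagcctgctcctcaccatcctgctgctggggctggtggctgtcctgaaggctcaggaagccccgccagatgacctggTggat
Obp2b, exon 1: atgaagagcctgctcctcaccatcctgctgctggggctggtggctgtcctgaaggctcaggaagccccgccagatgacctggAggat
In exon 2 the same pair differs at 39 of the 90 bases shown next, at chr2:25700744-25700833 (Obp2a) and chr2:25737695-25737784 (Obp2b), and over the 3 exons of equal length it differs at 100 of 307 bases.
Obp2a, exon 2: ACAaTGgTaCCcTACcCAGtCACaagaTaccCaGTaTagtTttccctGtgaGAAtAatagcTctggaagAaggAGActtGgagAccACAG
Obp2b, exon 2: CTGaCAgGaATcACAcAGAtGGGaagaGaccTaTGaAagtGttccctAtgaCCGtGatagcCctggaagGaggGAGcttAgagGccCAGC
Mup4 and Mup5 stand between these cases. They lie on the minus strand of chromosome 4 and differed at 29 of 467 bases over 5 exons of equal length (93.8% identity), with 9 differences in the exon 5 stretches at chr4:59958060-59958149 (Mup4) and chr4:61832556-61832645 (Mup5).
Mup4: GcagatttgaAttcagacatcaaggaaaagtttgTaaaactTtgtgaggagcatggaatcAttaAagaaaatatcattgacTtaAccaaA
Mup5: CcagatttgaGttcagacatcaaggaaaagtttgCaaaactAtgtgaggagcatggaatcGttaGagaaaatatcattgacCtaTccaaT

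The deposited tables hold a count of uniquely mapped reads and a count to which reads that fit several places were added back (rescued). Over all 9 mice, 99.0% of the rescued count of Bpifb9b and 99.0% of that of Bpifb9a came from added reads, nearly all of which fitted exactly 2 places. Next came Mup4 (48.3% added), Mup5 (44.0%) and Obp1a (35.3%), then Mup6 (30.9%), while 88.0% of the reads of both Obp2a and Obp2b were unique. The other 10 members with a mean of at least 10 counts, all of them Bpif or Lcn genes, gained at most 0.0184%. The share of a gene's reads that mapped to 1 place was, outside the Mup genes, close to the share of its 50-base exon windows that have 1 place in the genome when up to 2 mismatches are allowed. For Bpifb9a and Bpifb9b that share was 0.674% of windows against 0.968% of reads, while an exact match would have left 24.3% of windows unique. For Obp1a it was 66.7% of windows against 64.7% of reads, and 33.3% of its windows had a near match in Gm5938. For Obp2a it was 86.1% of windows against 88.0% of reads, and all 55 windows of Obp2a that were not unique lie in exon 1. The Mup genes kept more unique reads (Mup4 51.7%, Mup5 56.0%, Mup6 69.1%) than unique windows (34.9%, 45.7% and 36.3%), and single windows of these 3 genes matched up to 22, 28 and 32 places.

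**Figure D1:**
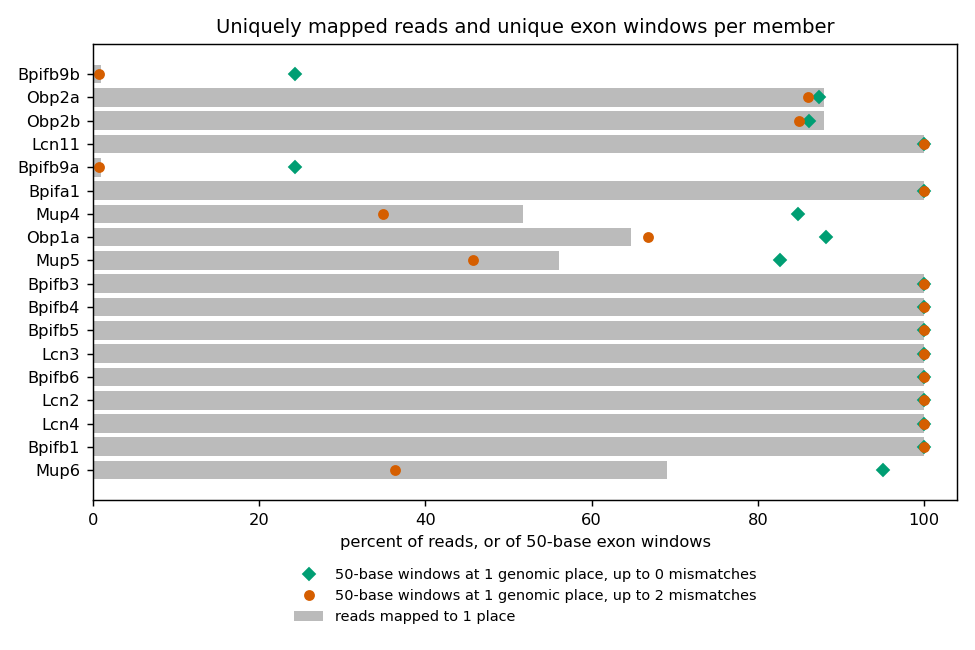
For the 18 members with a mean of at least 10 rescued counts, ordered by total count, grey bars give the percent of rescued counts that were uniquely mapped (9 mice pooled), green diamonds the percent of 50-base exon windows with 1 exact place in the genome, and orange circles the same with up to 2 mismatches. Bpifb9a and Bpifb9b stand at 0.968% of reads and 0.674% of windows, and the 10 Bpif and Lcn members without a near copy at or near 100%.

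How the rescue split a pair was read from its ratio. In all 9 mice the Bpifb9b to Bpifb9a ratio was the same in rescued and in unique counts, within a relative tolerance of 0.001, and so was the Obp2b to Obp2a ratio. The Bpifb9 split therefore rests on 218 to 835 unique reads of Bpifb9a and 800 to 3168 of Bpifb9b per mouse, and their sum is less dependent on it than either gene. The Bpifb9b to Bpifb9a ratio lay between 2.95 and 4.49. Obp2a and Obp2b had at least 71697 and 34537 unique reads per mouse. The Mup5 to Mup4 ratio fell after the rescue to between 0.910 and 0.967 of its value in unique reads.

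The set held a large part of each library. As a share of all rescued counts, the 47 genes summed to 9.79%, 8.69% and 8.84% in the control mice at days 18, 21 and 22, to 6.47%, 6.53% and 10.4% in the mice given 1% heptanal, and to 5.95%, 7.64% and 6.03% in those given 100% heptanal. Controls averaged 9.11% ± 0.594, 1% heptanal 7.80% ± 2.25 and 100% heptanal 6.54% ± 0.957 (SD, n = 3 mice each). All 3 mice given 100% heptanal lay below all 3 controls, whereas the 1% group spanned both. Within litters the share at 100% heptanal was 0.608, 0.880 and 0.682 times that of the control littermate at days 18, 21 and 22. A sum over chosen genes was not tested.

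Unique counts gave a lower share in every mouse but the 1% heptanal mouse of day 22, and another order. At days 18, 21 and 22 the control libraries gave 6.35%, 6.80% and 8.12% of unique counts. The mice exposed to 1% heptanal gave 4.41%, 5.39% and 10.6%, and those exposed to 100% heptanal 3.54%, 4.11% and 5.62%. In each treatment group the unique share was thus lowest at day 18 and highest at day 22, an order that the rescued share showed in the 1% heptanal group but not in the control or 100% heptanal group. Rescue supplied 26.9% to 60.4% of the counts of the set, against 23.9% to 30.5% of all counts in a library. Most of that belonged to the Bpif genes, which made up 0.769% to 1.08% of unique counts and 1.89% to 5.39% of rescued counts. In rescued counts the summed shares of the families differed in order by day. Bpif genes averaged 4.15%, 3.76% and 2.38% at days 18, 21 and 22, and Obp genes 2.15%, 2.95% and 4.71% (n = 3 mice a day). In unique counts the Bpif average did not fall with day, at 0.846%, 1.006% and 0.905%. Unique counts keep 0.968% of the Bpifb9 reads, so this average mainly describes the other Bpif genes. The unique reads of Bpifb9b (control, 1% and 100% heptanal) were 3168, 2144 and 1995 at day 18. They were 1481, 800 and 2320 at day 21 and 1051, 984 and 822 at day 22. The Obp average rose with day in unique counts too, at 2.63%, 3.44% and 5.53%. Single Bpif genes went both ways by day, as given below. Lcn genes held 0.350% to 1.46% and Mup genes 0.0886% to 0.647% of a library.

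**Figure D2:**
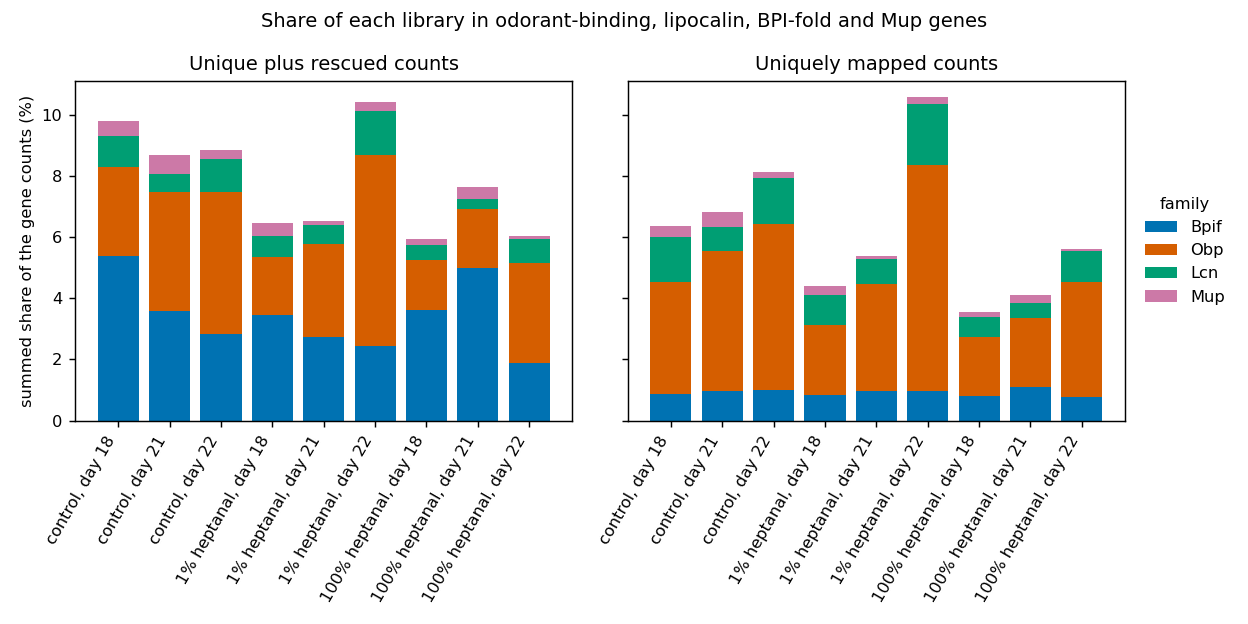
Stacked bars give the summed share of gene counts, in percent, of the Bpif, Obp, Lcn and Mup genes in each of the 9 mice, from rescued counts (left) and from uniquely mapped counts (right). Bpif genes reach 5.39% of rescued but at most 1.08% of unique counts, and the 3 mice given 100% heptanal lie below the 3 controls in both panels.

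A few genes carried the set. The top 4 of the 47 (Bpifb9b, Obp2a, Obp2b and Lcn11) held 75.9% of its counts, and 5 of the 10 genes with the highest mean share in the tables were members, Bpifb9b being the first and Obp2a the second of all genes. Of the 47, 18 had a mean of at least 10 counts and a count in all 9 mice (8 Bpif, 3 Obp, 4 Lcn and 3 Mup genes). Each of the other 29 summed to at most 81 counts over the 9 mice. Of these 29, 16 rounded to 0 counts in every mouse (11 Mup genes, 4 Lcn genes and Bpifa3), and 5 of the 16, Bpifa3, Lcn5, Lcn6, Lcn9 and Lcn10, had no fraction of a read either, which allows up to 3 counts, or 3.09e-05% to 5.52e-05% of a library. Mup20, the gene of the male pheromone darcin, rounded to at most 1 count. For the tests across genes 19 members passed the filter on low counts, the 18 above and Bpifc. Bpifc passed it only through the mice of day 18.

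The symbol rule leaves out relatives at high level. One, Gm14744, which RefSeq lists with an odorant-binding protein synonym, took 0.990% of counts on average and was the fifth gene of all, with 99.5% of its reads added by rescue. It was picked out after its value was seen and enters none of the counts here.

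The levels of single members follow as CPM, read counts divided by library size after TMM scaling, which sets libraries to a common level for the typical gene. Obp2a, an odorant-binding protein of nasal glands, stood at 18910, 25765 and 28868 CPM in controls at days 18, 21 and 22, at 11670, 18223 and 40870 CPM with 1% heptanal, and at 9290, 13579 and 20755 CPM with 100% heptanal. It was higher at day 22 than at day 18 in each treatment, and at each day lowest with 100% heptanal. Obp2b stood at 10728, 11486 and 13089 CPM in controls, 5983, 9376 and 19177 CPM with 1% heptanal, and 6820, 5565 and 10004 CPM with 100% heptanal. Its 3 mice given 100% heptanal all lay below its 3 controls. Obp1a, an X-linked odorant-binding protein gene, varied most among the 12 members of highest level, by 33.7 times from the lowest to the highest mouse. It stood at 808, 1628 and 4086 CPM in controls, 407, 1032 and 5788 CPM with 1% heptanal, and 172, 668 and 1974 CPM with 100% heptanal, rising with day in each treatment.

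Lcn11, a lipocalin whose gene lies beside the Obp2 genes, stood at 9192, 4980 and 9136 CPM in controls, 5751, 4703 and 13409 CPM with 1% heptanal and 3550, 3237 and 6581 CPM with 100% heptanal. Day 21 was its lowest day in each treatment. Lcn3, a lipocalin of nasal and vomeronasal glands, was at 256.4 to 1869 CPM over the 9 mice. Lcn2 (lipocalin 2, which binds bacterial siderophores) reached 36.1 to 126 CPM and Lcn4 10.1 to 113 CPM.

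Among the BPI-fold genes, Bpifb9b stood at 39918, 22194 and 17110 CPM in controls at days 18, 21 and 22, 21648, 14233 and 14691 CPM with 1% heptanal, and 23783, 33666 and 10402 CPM with 100% heptanal. Bpifb9a stood at 10521, 6833 and 3809 CPM, 5584, 4821 and 4046 CPM, and 6593, 9505 and 2759 CPM in the same order. Both genes were lower at day 22 than at day 18 in each treatment. Bpifa1, which codes for a surfactant-like antimicrobial protein of the upper airway, stood at 1969, 2632 and 1324 CPM in controls, 2147, 2119 and 1767 CPM with 1% heptanal, and 2923, 3987 and 1724 CPM with 100% heptanal. Within every litter the mouse given 100% heptanal was above its control. Bpifb4 stood at 718, 1451 and 2398 CPM in controls, 832, 1461 and 2074 CPM with 1% heptanal, and 586, 1036 and 1439 CPM with 100% heptanal, rising with day each time. Bpifb3 stood at 805, 1492 and 1713 CPM in controls, 1262, 1736 and 1506 CPM with 1% heptanal, and 690, 1238 and 1437 CPM with 100% heptanal. Bpifb5 stood at 2095, 806 and 1152 CPM in controls, 1055, 852 and 1174 CPM with 1% heptanal, and 1287, 1176 and 752 CPM with 100% heptanal, with no order of days in common.

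Mup4 stood at 3038, 3578 and 1363 CPM in controls at days 18, 21 and 22, 2692, 752 and 2093 CPM with 1% heptanal, and 932, 1551 and 572 CPM with 100% heptanal. Mup5 stood at 2021, 2905 and 1436 CPM in controls, 1521, 693 and 834 CPM with 1% heptanal, and 1286, 2423 and 313 CPM with 100% heptanal. Both Mup genes had their highest control value at day 21, and Mup6 was near the floor at 0.342 to 3.98 CPM. The 5 liver markers Alb, Apoa1, Apoa2, Fgb and Cps1 were too low to be tested and summed to at most 0.000126% of any library.

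Per kilobase of RefSeq exon, which is the scale on which genes can be compared, Obp2a had the highest mean level (29286 CPM per kb), followed by Obp2b (11323), Bpifb9b (10723), Lcn11 (10317) and Bpifb9a (2967). The range over mice of Obp2b (6149 to 21190 CPM per kb), Bpifb9b (5079 to 19491) and Lcn11 (4964 to 20566) overlapped almost fully, so these 3 have no order beyond their spread. The cDNA was primed from the poly-A tail and reads can favour the 3′ end, which a division by length does not remove.

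**Figure D3:**
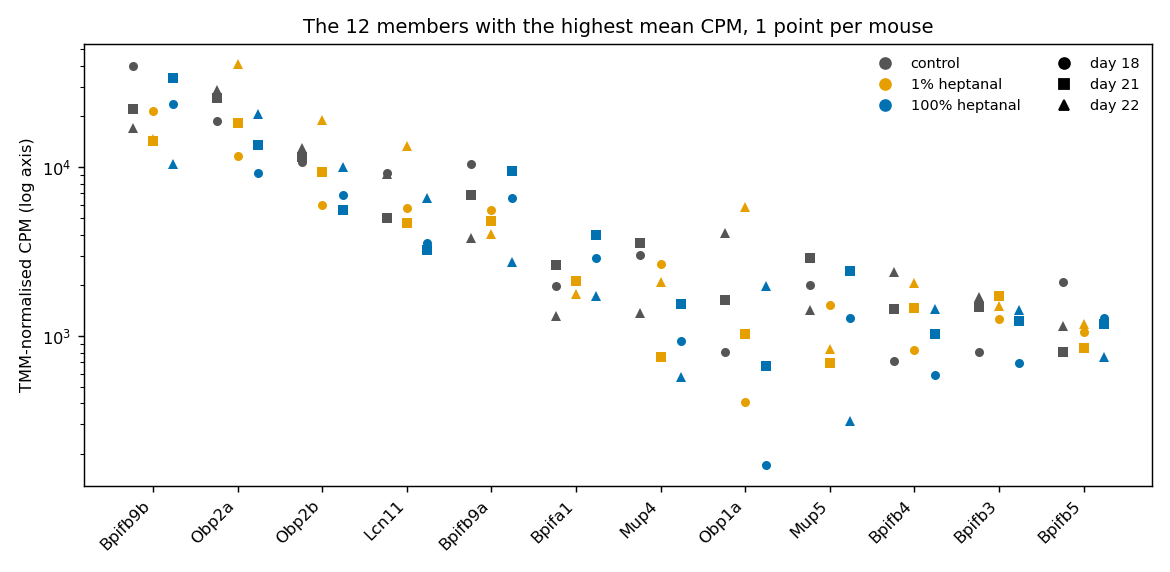
Points give TMM-normalised CPM on a log axis for the 12 members with the highest mean, 1 point per mouse, with colours for treatment and symbols for postnatal day. Obp1a spreads over 172 to 5788 CPM, with the day 22 mouse highest in each treatment, while Bpifb3 spreads over 690 to 1736 CPM.

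Whether odour exposure moved these genes was asked in 3 comparisons. Under 100% heptanal 12 of the 19 tested members were lower than in the control littermate in all 3 litters: all 3 Obp genes, all 3 Mup genes, Lcn3, Lcn4 and Lcn11, and Bpifb3, Bpifb4 and Bpifb6. A further 3 Bpif genes (Bpifa1, Bpifb1 and Bpifc) were higher in all 3 litters, and Bpifb5, Bpifb9a, Bpifb9b and Lcn2 went both ways. Bpifc was near the floor, at 0 CPM in the control and 0.343 CPM with 100% heptanal at day 22. Lower in all 3 litters held for 63.2% of the tested members and for 18.1% of all 14930 tested genes, and higher in all 3 for 15.8% of members and 18.4% of all genes. These 12 were measured in the same 3 litters and are not independent. Among them, Lcn4 at day 22 was at 0.999 of its control. Mup6 was near the floor, with 0.561 against 0.705 CPM at day 21. Only Obp2b (1 of 19 members, against 3.54% of all genes) lay below the controls without overlap, and no member lay above them without overlap (5.96% of all genes).

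None of these differences passed edgeR's test across all genes, while DESeq2 with the litter block called 5. edgeR's quasi-likelihood test without a litter term called 0 of 19 members at an adjusted p under 0.05 (0.0134% of all genes), and with the litter as a block it again called 0 (0.322% of all genes). Without the block the fitted log2 changes of 16 of 19 members were below 0, with a median of -0.50 against -0.03 for all genes, 53.2% of which were below 0. At an unadjusted p under 0.05 it had 1 member lower (1.17% of all genes were) and 0 higher, and with the block 7 lower (3.79%) and 2 higher (6.63%). The largest fitted decrease without the block was that of Mup4, at -1.39 ± 0.56 log2 units (SE, unadjusted p = 0.0353 from edgeR's quasi-likelihood fit, adjusted p = 0.9999). Mup4 stood at 0.307, 0.433 and 0.420 times its control littermate at days 18, 21 and 22. Obp1a stood at 0.212, 0.410 and 0.483 times its control littermate, and its edgeR log2 change was -1.21 ± 1.10 without the block (SE, adjusted p = 0.9999) and -1.55 ± 0.29 with it (adjusted p = 0.0774). Obp2a stood at 0.491, 0.527 and 0.719 times its control littermate, Obp2b at 0.636, 0.484 and 0.764 times, and Lcn11 at 0.386, 0.650 and 0.720 times. Their edgeR log2 changes with the block were -0.83 ± 0.22, -0.71 ± 0.26 and -0.85 ± 0.23 (SE, adjusted p = 0.223, 0.385 and 0.223).

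DESeq2 with the litter block differed from edgeR here: it called 5 lower of the 17 members to which it gave an adjusted p. These, lower with 100% heptanal than in controls, were Bpifb4, Bpifb6, Lcn11, Obp1a and Obp2a, at a background of 0.256% of 14061 genes lower. Their DESeq2 adjusted p ran from 4.36e-07 (Obp1a) to 0.0460 (Bpifb4). Without the block DESeq2 called 0 members (0.465% of genes). Bpifa1 and Bpifb1 were higher in the 3 litters at 0.54 ± 0.35 and 0.51 ± 0.27 log2 units (SE, edgeR without block, adjusted p = 0.9999 for both), but with libraries scaled by 5 markers of mature olfactory sensory neurons, which puts the median of all genes at -0.89, they stood at -0.28 and -0.37.

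**Figure D4:**
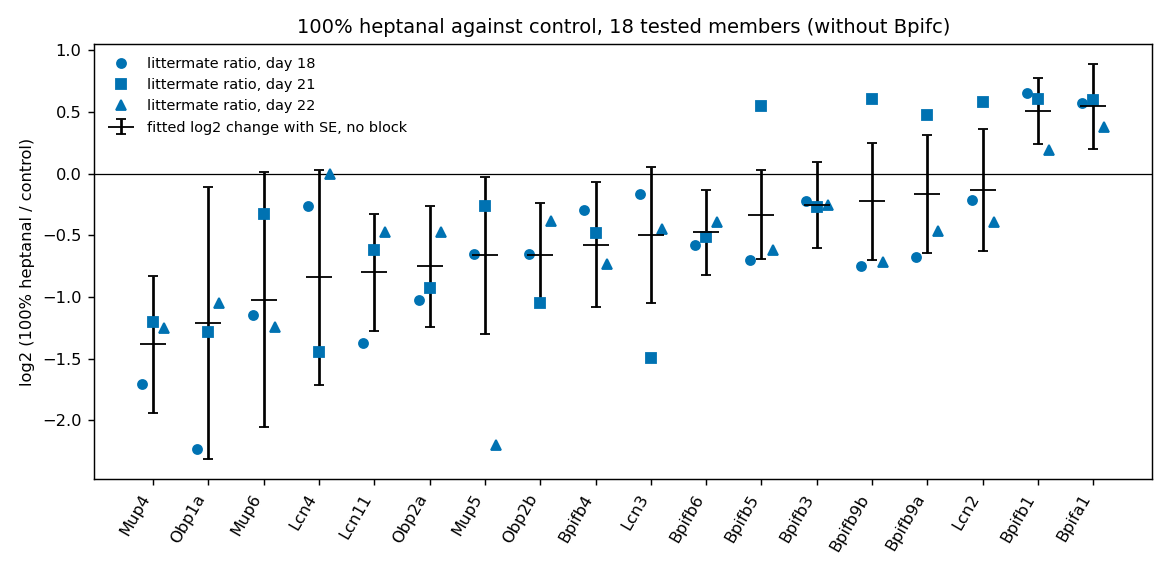
For 18 tested members (Bpifc, with a count of 0 in a control, is left out), black bars give the edgeR log2 change of 100% heptanal against control with its SE, and blue symbols the log2 ratio of the TMM-normalised CPM to the control littermate at each day. The 12 members that lie at or below 0 in all 3 litters include Mup4, Obp1a, Lcn11, Obp2a and Obp2b, and Lcn4 at day 22 is at 0.999 of its control.

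Marker genes of other cell types had other shares in the same comparison. The summed share of the 5 markers of mature olfactory sensory neurons (OSNs) was 0.405% to 0.870% in controls and 1.06% to 1.45% with 100% heptanal, and that of the 5 sustentacular (supporting) cell markers 0.375% to 0.447% and 0.570% to 0.831%. All 5 genes of each list had log2 changes above 0, and edgeR called 0 of them without the block and 1 OSN marker with it. For the nasal gland and mucus list, genes of secretory cells, the summed share was 0.369% to 0.842% in controls and 0.491% to 0.762% with 100% heptanal, 9 of its 17 tested genes were above 0, the median log2 change was 0.00, and 0 were called. The 5 activity genes, a check of the exposure, summed to 0.0127% to 0.0240% of a library in controls and 0.0960% to 0.130% with 100% heptanal, and 1 of them, Fosb, passed edgeR's test without the block and 4 with it. The erythroid list was lower in the same litters as the members. Its 7 genes hold 4 distinct measurements, since Hba-a1 and Hba-a2, Hbb-b1 and Hbb-bs, and Hbb-b2 and Hbb-bt had the same count in every mouse. Counted once each, they summed to 0.642, 0.450 and 0.681 times the share in the control littermate at days 18, 21 and 22 under 100% heptanal. All had log2 changes below 0, and edgeR called 0 of the 4 without the block (0 at an unadjusted p under 0.05) and 0 with it (4 at an unadjusted p under 0.05), where Hbb-b1 was at -0.93 ± 0.19 log2 units (SE, adjusted p = 0.115). The part of these differences in the members' values was not tested.

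With 1% heptanal the members showed no common direction. edgeR called 0 of 19 members both without the block (0% of all genes) and with it (0%), 0 passed an unadjusted p under 0.05 in either fit, and DESeq2 without the block called 0 (0.0067% of genes). In all, 10 members had log2 changes below 0 and 9 above, with a median of -0.03 against -0.02 for all genes. Lower in all 3 litters were Bpifb9b and Mup5 (2 of 19, against 11.7% of all genes), and higher in all 3 were Bpifb1 and Bpifb6 (2 of 19, against 11.5%). The Obp genes split by litter: Obp2a, Obp2b and Obp1a were above the control at day 22 and below it at days 18 and 21. This comparison shares its controls with the one above.

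Between the exposures, 12 of 19 members had a lower fitted value with 100% than with 1% heptanal, with a median log2 difference of -0.42 against 0.01 for all genes. edgeR called 0 members without the block (0.0134% of all genes) and 0 with it (0.0804%), where 6 were lower (3.68% of all genes) and 1 higher (6.74%) at an unadjusted p under 0.05. DESeq2 called 0 without the block (0.168% of genes) and 3 lower with it, Bpifb6, Lcn11 and Obp1a (0.181%). The lowest adjusted p in edgeR with the block was that of Bpifb6, at -0.69 ± 0.12 log2 units (SE, adjusted p = 0.151).

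Members were also compared between postnatal days, in a fit with a treatment term and 3 mice per day. Each day is 1 replication of littermates, so the day p-values measure the spread among littermates and not between litters. They cannot assign a difference to age. Between day 18 and day 22, edgeR called 12 of 19 members, 8 lower at day 18 (11.8% of all genes were) and 4 higher (18% of all genes). All 3 Obp genes were lower at day 18, as were Bpifb3, Bpifb4 and Bpifb6, Lcn2 and Lcn11. Bpifb9a, Bpifb9b, Bpifc and Lcn4 were higher, and none of the 3 Mup genes was called. Bpifc passed the filter on low counts only through the day 18 mice, so its call is not an independent result. Median log2 changes were -1.21 for the Obp, -0.59 for the Lcn, 0.50 for the Bpif and 0.68 for the Mup genes, against 0.02 for all genes.

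Obp1a was lower at day 18 than at day 22, by -3.24 ± 0.30 log2 units (SE, edgeR adjusted p = 3.53e-04). Bpifb4 (-1.45 ± 0.14, edgeR adjusted p = 3.70e-04) and Bpifb6 (-0.89 ± 0.13, edgeR adjusted p = 0.00148) were also lower. Obp2a was lower by -1.21 ± 0.23 (edgeR adjusted p = 0.00512). Among the genes with the smallest p, Lcn4 went the other way, by 2.33 ± 0.34 log2 units (edgeR adjusted p = 0.00174), from 10.1, 14.9 and 10.1 CPM at day 22 to 62.4, 63.8 and 52.0 CPM at day 18 (control, 1% and 100% heptanal). Bpifb3 was lower at day 18 by -0.80 ± 0.18 and Lcn2 by -0.94 ± 0.21 (SE, edgeR adjusted p = 0.0104 and 0.0105). Bpifc, a BPI-fold gene apart from the others on chromosome 10, rested on few reads. Its counts were 0, 0 and 3 at day 22 and 12, 18 and 40 at day 18 (edgeR adjusted p = 0.0116). That p is no support, since the filter let Bpifc in through day 18 (1.52 to 4.56 CPM, at most 0.561 CPM at other days). Bpifb9a was higher at day 18 by 1.04 ± 0.29 log2 units and Obp2b lower, by -0.84 ± 0.26 (edgeR adjusted p = 0.0248 and 0.0389). Counted as 1 gene, Bpifb9a and Bpifb9b rose from 20919, 18737 and 13160 CPM at day 22 to 50439, 27232 and 30376 CPM at day 18, by 0.98 ± 0.30 log2 units (SE, edgeR adjusted p = 0.0395).

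Day 21 lay between the others for some members and not for others. Against day 22 edgeR called 5 members lower at day 21 (5.61% of all genes were): Obp1a, Bpifb4, Lcn2, Lcn3 and Lcn11. It called 3 higher (12.4% of all genes): Lcn4, Bpifa1 and Bpifb9a. Lcn4 was at 113, 43.6 and 41.5 CPM at day 21 (control, 1% and 100% heptanal), higher than at day 22 by 2.39 ± 0.35 log2 units (SE, edgeR adjusted p = 0.00339). Obp1a was lower by -1.82 ± 0.29 (edgeR adjusted p = 0.00460) and Lcn11 by -1.16 ± 0.23 (adjusted p = 0.0107). Bpifb9a passed narrowly (adjusted p = 0.0498), and the Bpifb9 pair counted as 1 gene did not (0.76 ± 0.31 log2 units, edgeR adjusted p = 0.125). Between day 18 and day 21, edgeR called 3 members lower at day 18 (1.21% of all genes), Bpifb4, Bpifb6 and Obp1a, and 0 higher (0.442%), where 5 were lower (9.6% of all genes) and 1 higher (9.04%) at an unadjusted p under 0.05. DESeq2, which gave an adjusted p to 17 members and 11167 genes here, called 4 members lower (4.33% of those genes) and 0 higher (3.29%).

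**Figure D5:**
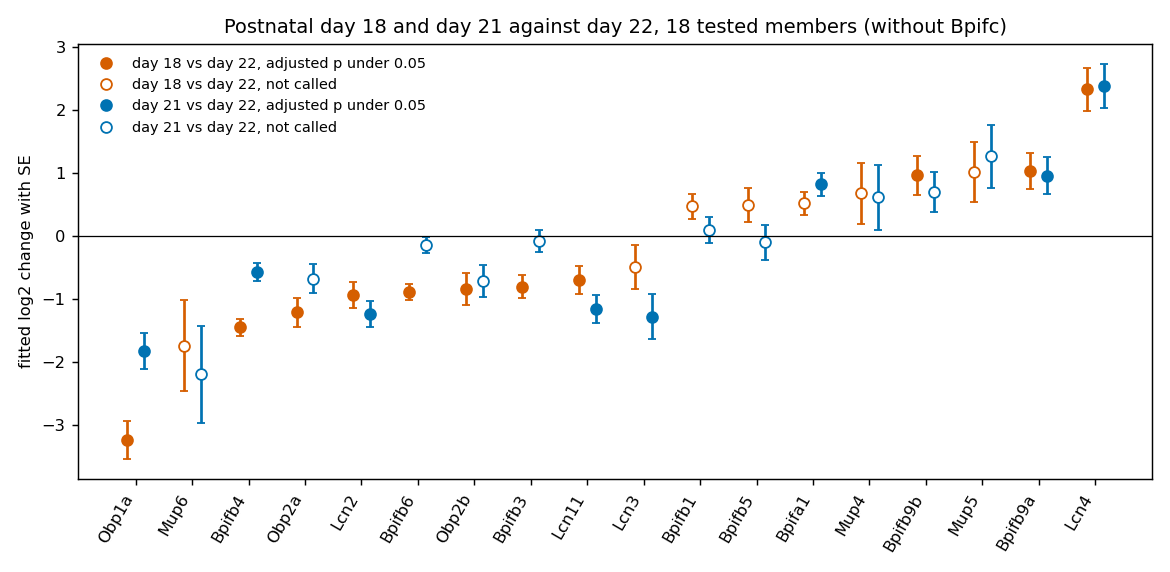
Circles give the edgeR log2 change of day 18 (orange) and day 21 (blue) against day 22, with its SE, for 18 tested members (Bpifc is left out), in order of the day 18 change. Filled circles have an adjusted p under 0.05. Obp1a is lowest at -3.24 and Lcn4 highest at 2.33, with a day 21 value of 2.39 close to its day 18 value.

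The day calls depended on single mice and on the scaling. Scaled by the 5 markers of mature olfactory sensory neurons, which puts the median of all genes at 0.77, 0.15 and -0.61 for day 18 against 21, 18 against 22 and 21 against 22, edgeR called other numbers. For day 18 against day 21 it called 6 members higher (24.7% of all genes) and 0 lower (0.469%). For day 18 against day 22 it called 2 higher (17.6%) and 2 lower (4.08%), and for day 21 against day 22 it called 1 higher (9.02%) and 8 lower (20%). Without the control of day 22 or the control of day 18 the day 18 against day 22 count was 7 instead of 12, while calls over all genes went from 29.8% to 15.5% and 18.3%. For day 21 against day 22 it was 4 without the control of day 22, 5 without the 100% heptanal mouse of day 22, 3 without the control of day 21 and 4 without the 100% heptanal mouse of day 21, instead of 8, while calls over all genes went from 18% to 6.71%, 16.5%, 6.15% and 6.73%. For day 18 against day 21 the 3 calls became 1 without the control of day 22 and 0 without the control or the 100% heptanal mouse of day 18 or any 1 of the 3 mice of day 21, while calls over all genes went from 1.65% to 0.552% without the control of day 22 and to 0.306% to 0.484% without each of the others.

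Other secretory genes also differed by day. Of 17 tested nasal gland and mucus genes, edgeR called 7 lower at day 18 than at day 22 (11.8% of all genes were) and 1 higher (18% of all genes). Among the 7 were Muc5b, a gel-forming mucin, at -1.43 ± 0.18 log2 units, Ltf, the iron-binding lactotransferrin, at -1.45 ± 0.13, and Scgb1c1, a secretoglobin, at -1.87 ± 0.21 (SE, edgeR adjusted p = 9.28e-04, 2.81e-04 and 6.46e-04). The summed share of that list was 0.369% to 0.569% at day 18, 0.491% to 0.565% at day 21 and 0.762% to 0.859% at day 22. Of 6 tested lipocalin-fold and BPI-fold genes outside the set, 2 were called lower at day 18 than at day 22, Apod (-1.65 ± 0.18 log2 units, edgeR adjusted p = 5.57e-04) and Lbp (-0.66 ± 0.21, adjusted p = 0.0453), and none higher. Of other marker lists at day 18 against day 22, ciliated respiratory cells had 2 of 6 genes higher and 0 lower. Sustentacular cells had 2 of 5 higher and 1 lower, and OSNs 1 of 5 lower and 0 higher. Lists of 5 or 6 genes are too short to set apart from the shares of all genes, 18% higher and 11.8% lower. All 4 distinct erythroid measurements were lower at day 18, with a summed share, each counted once, of 0.0734% to 0.114% there against 0.384% to 0.853% at the other days. Neutrophil markers summed to at most 0.00406% and vomeronasal neuron markers to at most 0.00132% of a library. Whether these differences have a part in the members' day differences was not tested.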

How the data were processed

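Olfactory epithelium of 9 mice was homogenised, pS6 ribosomes were immunoprecipitated and the RNA was sequenced as 50-base single-end reads from poly-T primed, PCR-amplified cDNA. The authors mapped reads with Bowtie to mm10 and counted them with BEDTools, and versions are not given in the sources used here. The deposited tables hold, per gene, a whole-number count of uniquely mapped reads. The deposited rescued values are estimated counts in which the authors added multi-mapped reads back by a rescue scheme, and they were rounded to whole numbers here for the tests. Libraries held 5438494 to 9707592 rescued counts. Groups came from the sample labels.

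Members were chosen by symbol, and the members and gene lists were chosen with earlier results of these data known. Tests used edgeR 4.0.16 (R 4.3.3; filterByExpr, TMM, quasi-likelihood) on the whole table, with Benjamini-Hochberg adjustment over 14930 genes and a threshold of 0.05, checked on simulated data. Treatments were fitted without a block and days with a treatment term. DESeq2 1.42.0 was an alternative, as were unique counts, RLE factors, scaling by neuron markers, no filter, leaving out each mouse and the litter block. Replicate numbers mark 1 mouse of each group at 1 postnatal day and were used to pair the mice. Deviations from the group means correlated in all 9 same-day pairs (r 0.155 to 0.7304, mean 0.54). In the 18 pairs of different days r was -0.7456 to 0.449 (mean -0.253), so the ranges overlap. Deviations within a group sum to 0, which ties the different-day values to the same-day ones, so they are no independent baseline. Same-day mice also share sex, so these values alone do not show littermates, and the pairing rests on the study's methods and the labels. The genes named are the 12 members of highest mean CPM, those past the threshold (the 10 of lowest p where more than 10 passed), the 5 with most rescued reads, and at most 3 of a list. Window counts allowed up to 2 mismatches over GRCm38.p6. The ± values are SDs over mice or SEs of the fits and measure the spread between mice. Floors cover counting error only, since PCR reads without molecular identifiers are not independent molecules.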

Additional observations from a re-analysis of the deposited data

How the results depend on the processing

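Heptanal calls depended on the model. For treatments, mice were left out only in the edgeR fits with TMM scaling, which called 0 members. The fits that called members were not rerun without a mouse, so their dependence on single mice was not measured. With the replicate block (postnatal day, the pairing of littermates) edgeR called 0 members in each of the 3 treatment comparisons, as without it, and the block with DESeq2 called 5 for 100% heptanal against control and 3 for 100% against 1%. The block with scaling by 5 neuron markers called 11 and 10, all lower, where 17.4% and 30.5% of all genes were called lower and the median of all genes was -0.80 and -0.84. Leaving out 1 mouse gave 0 calls in every treatment comparison without the block and 0 to 1 with it for 100% heptanal against control (1 without the 1% heptanal mouse of day 22 or of day 21); this last alternative was chosen after seeing the data, as was counting Bpifb9a and Bpifb9b as 1 gene. For days, 3, 12 and 8 members were called (18 against 21, 18 against 22, 21 against 22). Scaling by neuron markers gave 6, 4 and 9, and no treatment term 0, 9 and 6. Leaving out 1 mouse gave 0 to 4, 7 to 14 and 3 to 9, with the mice responsible named in the report. Unique counts, DESeq2, RLE factors, no filter and the summed pair kept each count within 1.5 times. The mean share of the set in controls was 7.09% in unique counts and 6.52% without Bpifb9b, and with 100% heptanal 4.42% and 4.30%. Leaving out 1 mouse gave 8.77% to 9.31% in controls, 6.50% to 8.47% with 1% and 5.99% to 6.84% with 100% heptanal. Of single-gene values under an alternative, 510 kept direction and side of the threshold, 98 lost significance, 14 gained it and 5 reversed, all 5 under scaling by neuron markers. These were Bpifb6 for day 18 against day 21 (0.0079), and for 100% heptanal against control Bpifa1 (-0.28, and -0.26 with the block) and Bpifb1 (-0.37, and -0.31 with the block). Apart from the scaling itself, the cause was not tested. Depth limits the 29 members with a mean under 10 counts. Near copies also limit Mup2, Mup11, Mup15, Mup20 and the 11 Mup genes that rounded to 0. The split of the Bpifb9 pair rests on under 1% of its reads.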
